A study of Mus musculus with 4 samples.

Results

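Counts assigned to 4 mitochondrial genes and to 5 nuclear pseudogenes that carry copies of them were described across 12 libraries of mouse testis. The genes were mt-Co1, mt-Co2, mt-Co3 and mt-Atp6. The copies were Gm29216 of mt-Co1, Gm13341 and Gm28661 of mt-Co2, Gm28437 of mt-Co3, and Gm10925 of mt-Atp6. Together they were 9 of the 28595 genes in the deposited count table. They were chosen by name for the counts and the copy-to-gene ratios they have in these same libraries, so their values are a description and carry no p-value.

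mt-Co1, mt-Co2 and mt-Co3 encode the catalytic core of cytochrome c oxidase, complex IV of the respiratory chain, and mt-Atp6 encodes the proton channel subunit of ATP synthase. All 4 are transcribed from the mitochondrial chromosome as parts of long transcripts that are then cut into separate mRNAs. Over evolution, stretches of mitochondrial DNA have been inserted into nuclear chromosomes, and such insertions are annotated as pseudogenes. In Leydig cells, which lie outside the seminiferous tubules and make testosterone, mitochondria also carry out the first step of testosterone synthesis.

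RNA was counted in 10 µm testis sections by photo-isolation chemistry, in which light uncages primers so that only RNA from the irradiated area enters the library. Such libraries read the 3′ ends of transcripts. Wild-type mice, whose titles carry the word young, and mice labelled H3t KO, which lack a testis histone H3 variant and whose titles give no age, were profiled with the entire section irradiated or with only Leydig cells irradiated. Each of the 4 groups had 3 libraries, told apart by barcodes under 1 deposited library name per group, so a difference between groups cannot be told apart from one between these barcoded sets. The labels name no other allele or agent.

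Sections had between 247539 and 566527 counts per library, and Leydig-targeted libraries between 5947 and 54882. Wild-type Leydig-targeted replicate 3, with 5947 counts, was the shallowest library, and 1 count in it is worth 168 CPM, the unit of counts scaled to the same total in every library. H3f4, the gene that encodes H3t, had 1 count in 1 wild-type section library and 0 in the other 11, so it checks no label. Of the 5182 genes that passed the expression filter, the share called at an adjusted p under 0.05 was 61.6% for knockout against wild type in sections and 28.5% in Leydig-targeted libraries. It was 15.6% for Leydig-targeted against entire section in wild type, 5.44% in knockouts and 0.328% for the genotype by region interaction. The median log2 difference over all tested genes, knockout minus wild type, was -0.35 in sections and -0.28 in Leydig-targeted libraries, and it moved to 0.22 and -0.09 when libraries were scaled by their totals alone. Leydig-targeted minus entire section, it was -0.67 in wild type and -0.42 in knockouts, and -0.09 and -0.23 with that scaling.

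The 10 markers of Leydig cells, among them the steroid enzymes, held 0.322% to 0.650% of counts in wild-type sections, 3.61% to 4.31% in knockout sections, 1.31% to 2.82% in wild-type Leydig-targeted libraries and 6.46% to 7.96% in knockout Leydig-targeted libraries. The 12 spermatocyte and spermatid markers held 3.23% to 5.92%, 0.0115% to 0.0954%, 2.03% to 3.35% and 0% to 0.0113% in the same order. In knockout Leydig-targeted libraries 8 of those 12 were at 0, namely Ldhc, Pgk2, Piwil1, Acr, Crisp2, Spesp1, Tnp1 and Tnp2. Wild-type Leydig-targeted libraries thus held germ cell transcripts beside Leydig transcripts. Fewer cells of a type and less RNA per cell cannot be told apart in such libraries, and the part that these shares play in the values below was not tested.

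The annotation puts 4 of the copies side by side on chromosome 1. Gm29216 (ENSMUSG00000101249) is at chr1:24615706-24616197, Gm28661 (ENSMUSG00000102070) at chr1:24614885-24615565, Gm10925 (ENSMUSG00000100862) at chr1:24613974-24614651 and Gm28437 (ENSMUSG00000101111) at chr1:24613189-24613971, all on the minus strand of GRCm38. They belong to a block of 7 unprocessed pseudogenes over 4663 bases that keeps the mitochondrial gene order. Gm13341 (ENSMUSG00000083863) lies in another block on the minus strand at chr2:22587291-22587962, 140 bases from Gm13340, a full-length copy of mt-Co1. The genes themselves are on the plus strand of the mitochondrial chromosome, mt-Co1 at bases 5328 to 6872, mt-Co2 at 7013 to 7696, mt-Atp6 at 7927 to 8607 and mt-Co3 at 8607 to 9390.

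Where a copy and its gene are identical, a read cannot be placed by its sequence, so the counts of these pairs are uncertain, and how reads with several matches were treated was not given in the sources used. Gm28661, Gm28437 and Gm10925 were identical to mt-Co2, mt-Co3 and mt-Atp6 over all 681, 783 and 678 of their bases. Gm29216 covers the last 492 of the 1545 bases of mt-Co1 and differs from it by 6 substitutions, all within its first 13 bases, so its last 479 bases are identical to the gene. Gm13341 differs from mt-Co2 by 16 substitutions and lacks 12 of its bases, and 3 of the substitutions fall in the last 100 bases of the gene. The stretches below are shown because they mark where a read can and cannot separate the pairs that carry most of the counts. All run 5′ to 3′ in the sense of the annotated transcript, with differing bases in capitals. The first pair is the start of Gm29216 (chr1:24616138-24616197, minus strand) and the matching bases 1054 to 1113 of mt-Co1.
mt-Co1: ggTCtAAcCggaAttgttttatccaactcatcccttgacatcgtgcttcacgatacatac
Gm29216: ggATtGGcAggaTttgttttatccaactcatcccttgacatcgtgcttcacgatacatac
Counted from the first base of mt-Co1, the substitutions from gene to copy are T1056A, C1057T, A1059G, A1060G, C1062A and A1066T. The second pair is the 3′ end of both, bases 1486 to 1545 of mt-Co1 and chr1:24615706-24615765 on the minus strand, with no difference.
mt-Co1: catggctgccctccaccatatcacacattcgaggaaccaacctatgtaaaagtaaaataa
Gm29216: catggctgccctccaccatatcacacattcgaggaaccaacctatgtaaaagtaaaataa
The third set is bases 580 to 639 of mt-Co2 with its copies on chromosome 2 (chr2:22587336-22587395, minus strand) and chromosome 1 (chr1:24614927-24614986, minus strand), and capitals mark differences between mt-Co2 and Gm13341 at A594G, T606C and G621A.
mt-Co2: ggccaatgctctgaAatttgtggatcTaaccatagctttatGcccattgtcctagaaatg
Gm13341: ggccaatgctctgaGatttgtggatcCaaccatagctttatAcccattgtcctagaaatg
Gm28661: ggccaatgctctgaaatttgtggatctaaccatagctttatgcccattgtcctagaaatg

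Gm29216, the partial copy of mt-Co1, had the largest spread of the 9. It had 17, 25 and 15 counts in wild-type sections, 1070, 1950 and 742 in knockout sections, 362, 207 and 88 in wild-type Leydig-targeted libraries, and 12, 9 and 1 in knockout Leydig-targeted libraries. Every knockout section and every wild-type Leydig-targeted library was above every library of the other 2 groups. The level was 46.1 ± 15.4 CPM (SD, n = 3) in wild-type sections and 3176 ± 1556 CPM (SD, n = 3) in knockout sections, a 68.8-fold higher mean. In Leydig-targeted libraries it was 9701 ± 4449 CPM (SD, n = 3) in wild type and 173 ± 92.9 CPM (SD, n = 3) in knockouts, so there the wild-type mean was 56.1-fold higher. The genotypes were thus ordered one way in sections and the opposite way in Leydig-targeted libraries.

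The fitted log2 difference of Gm29216, knockout minus wild type, was 5.50 ± 0.57 (SE) in sections and -5.44 ± 0.60 (SE) in Leydig-targeted libraries. Without wild-type Leydig-targeted replicate 3 the latter was -5.98. Leydig-targeted minus entire section was 6.74 ± 0.60 (SE) in wild type and -4.20 ± 0.58 (SE) in knockouts. The interaction of -10.94 ± 0.83 (SE) ranked second in fitted size, without regard to SE, among the 5182 tested genes. Gm29216 was chosen for these counts, so nothing is read from that rank or from its place among the 8 genes below. Of 26389 genes with any count, 8 had all 6 knockout-section and wild-type Leydig-targeted libraries above the other 6, and another 8 had those libraries below the other 6, so neither direction was the more frequent. In Gm29216 the lowest of the 6 higher libraries, 2249 CPM, was 9.92 times the highest of the 6 lower ones, 227 CPM. The mitochondrial 12S rRNA gene mt-Rnr1, singled out after its values were seen, was among the same 8 with a ratio of 1.21. Gm28439, another copy in the chromosome 1 block, was among them too, with a ratio of 1.91 on 54 counts over the 12 libraries. No further copy of that block was among the 8.

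**Figure D1:**
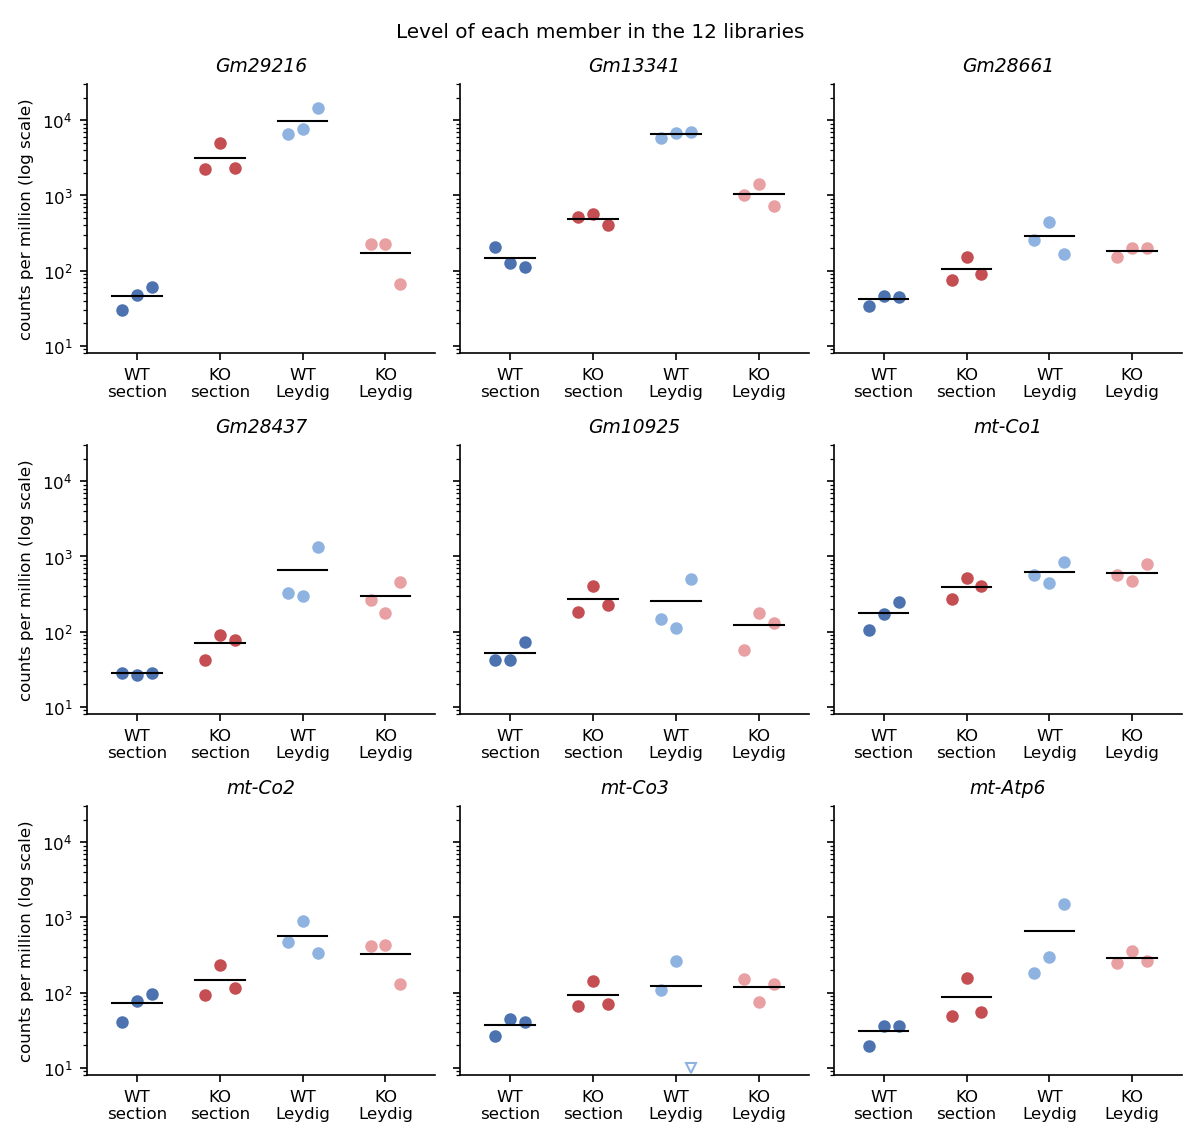
CPM (log axis) of each of the 5 nuclear copies and 4 mitochondrial genes in wild-type (WT) and knockout (KO) libraries of entire sections or Leydig-targeted areas; points are libraries, bars are means of 3, and the open triangle stands for 0 counts. Gm29216 is at 2249 CPM or above in knockout sections and wild-type Leydig-targeted libraries and at 227 CPM or below in the other 2 groups, a contrast that mt-Co1 lacks.

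mt-Co1, the gene that Gm29216 copies, did not follow it. It had 60, 90 and 62 counts in wild-type sections, 131, 201 and 131 in knockout sections, 31, 12 and 5 in wild-type Leydig-targeted libraries, and 30, 19 and 12 in knockout Leydig-targeted libraries. As levels these were 176 ± 72.4, 398 ± 119, 617 ± 202 and 611 ± 160 CPM (SD, n = 3 each). Sections of the genotypes did not overlap in CPM, with knockouts 2.26-fold higher, while the Leydig-targeted libraries of the genotypes overlapped with nearly equal means. The fitted log2 difference, knockout minus wild type, was 0.57 ± 0.45 (SE) in sections, or 1.20 with scaling by library totals alone. In Leydig-targeted libraries it was -0.07 ± 0.55 (SE). That became 0.07 with scaling by library totals alone and -0.70 without wild-type Leydig-targeted replicate 3.

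The copy share, the percentage of a family's counts assigned to its copies, does not depend on how libraries are scaled. For mt-Co1 and Gm29216 it was 22.1%, 21.7% and 19.5% in wild-type sections and 89.1%, 90.7% and 85.0% in knockout sections. It was 92.1%, 94.5% and 94.6% in wild-type Leydig-targeted libraries and 28.6%, 32.1% and 7.69% in knockout Leydig-targeted libraries. The exact 95% binomial intervals of single libraries were 82.5% or above at their lower end in the 6 high libraries and 52.4% or below at their upper end in the 6 low ones, counting error only. The last value, 7.69%, rested on 1 count of Gm29216 and 12 of mt-Co1, with an interval of 0.195% to 36.0%. Summed over the libraries of a group, 13.7 counts were assigned to Gm29216 for each count of mt-Co1 in wild-type Leydig-targeted libraries, against 8.13, 0.361 and 0.269 in knockout sections, knockout Leydig-targeted libraries and wild-type sections.

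mt-Co2, subunit II of complex IV, has a copy that differs from it at its 3′ end and one that does not. Gm13341, the differing copy, had 116, 66 and 28 counts in wild-type sections, 244, 219 and 131 in knockout sections, 315, 184 and 42 in wild-type Leydig-targeted libraries, and 53, 56 and 11 in knockout Leydig-targeted libraries. Its level was 148 ± 49.5 CPM in wild-type sections and 493 ± 77.6 CPM in knockout sections (SD, n = 3 each), 3.33-fold higher in knockouts. In Leydig-targeted libraries it was 6551 ± 711 CPM in wild type and 1045 ± 346 CPM in knockouts (SD, n = 3 each), 6.27-fold higher in wild type. Neither pair of groups overlapped, so Gm13341 also had opposite orders of the genotypes in the 2 kinds of library. Unlike Gm29216, it was higher in Leydig-targeted libraries than in sections in both genotypes, 44.3-fold in wild type and 2.12-fold in knockouts.

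The fitted log2 differences of Gm13341, knockout minus wild type, were 1.15 ± 0.48 in sections and -2.61 ± 0.50 in Leydig-targeted libraries (SE), and the latter was -3.37 without wild-type Leydig-targeted replicate 3. Gm28661, the copy of mt-Co2 that is identical to it, was lower and less variable. It had 19, 24 and 11 counts in wild-type sections, 36, 60 and 29 in knockout sections, 14, 12 and 1 in wild-type Leydig-targeted libraries, and 8, 8 and 3 in knockout Leydig-targeted libraries. mt-Co2 itself had 23, 41 and 24, then 44, 92 and 37, then 26, 24 and 2, then 22, 17 and 2 counts in the same order. Both had their lowest mean in wild-type sections, at 33.5 to 45.9 CPM for Gm28661 and 40.6 to 97.0 CPM for mt-Co2, and for both the Leydig-targeted libraries of the genotypes overlapped.

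For mt-Co2 and its identical copy Gm28661, the share assigned to the copy had group means of 37.9% ± 6.95, 42.8% ± 2.93, 33.9% ± 0.962 and 39.6% ± 17.9 (SD, n = 3 each) in wild-type sections, knockout sections, wild-type Leydig-targeted and knockout Leydig-targeted libraries. Set against Gm13341 alone, the share assigned to the copy was 53.8% to 83.5%, 70.4% to 84.7%, 88.5% to 95.5% and 70.7% to 84.6% in the same order. With both copies, the 3 wild-type Leydig-targeted libraries, at 92.7%, 89.1% and 95.6%, were above the 9 other libraries, of which the highest was 87.5%.

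mt-Co3, subunit III of complex IV, and its identical copy Gm28437 had few counts. mt-Co3 had 15, 23 and 10 counts in wild-type sections, 32, 56 and 23 in knockout sections, 6, 7 and 0 in wild-type Leydig-targeted libraries and 8, 3 and 2 in knockout Leydig-targeted libraries. In wild-type Leydig-targeted replicate 3, 3 counts correspond to 504 CPM, so the 0 there allows any level up to that. Gm28437 had 16, 14 and 7, then 20, 35 and 25, then 18, 8 and 8, then 14, 7 and 7 counts. Its share of the pair was 43.5% ± 7.19 in wild-type sections and 43.0% ± 7.86 in knockout sections (SD, n = 3 each), a difference smaller than the spread. In Leydig-targeted libraries the share was 76.1% ± 23.4 in wild type and 70.5% ± 7.08 in knockouts (SD, n = 3 each), and all 6 of these libraries were above all 6 sections. The narrowest of the gaps was between 53.3% in a Leydig-targeted library, on 15 counts, and 52.1% in a section.

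mt-Atp6, the ATP synthase gene, and its identical copy Gm10925 had the reverse arrangement. mt-Atp6 had 11, 19 and 9 counts in wild-type sections, 23, 61 and 18 in knockout sections, 10, 8 and 9 in wild-type Leydig-targeted libraries and 13, 14 and 4 in knockout Leydig-targeted libraries. Gm10925 had 24, 22 and 18, then 88, 161 and 72, then 8, 3 and 3, then 3, 7 and 2 counts. The copy share was 63.0% ± 8.12 in wild-type sections and 77.3% ± 4.12 in knockout sections, and 32.2% ± 10.6 and 28.5% ± 8.42 in wild-type and knockout Leydig-targeted libraries (SD, n = 3 each). All 6 sections were above all 6 Leydig-targeted libraries, and all 3 knockout sections, from 72.5% to 80.0%, were above the wild-type sections, from 53.7% to 68.6%. The level of Gm10925 was 5.21-fold higher in knockout than in wild-type sections, and its Leydig-targeted libraries overlapped between genotypes.

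**Figure D2:**
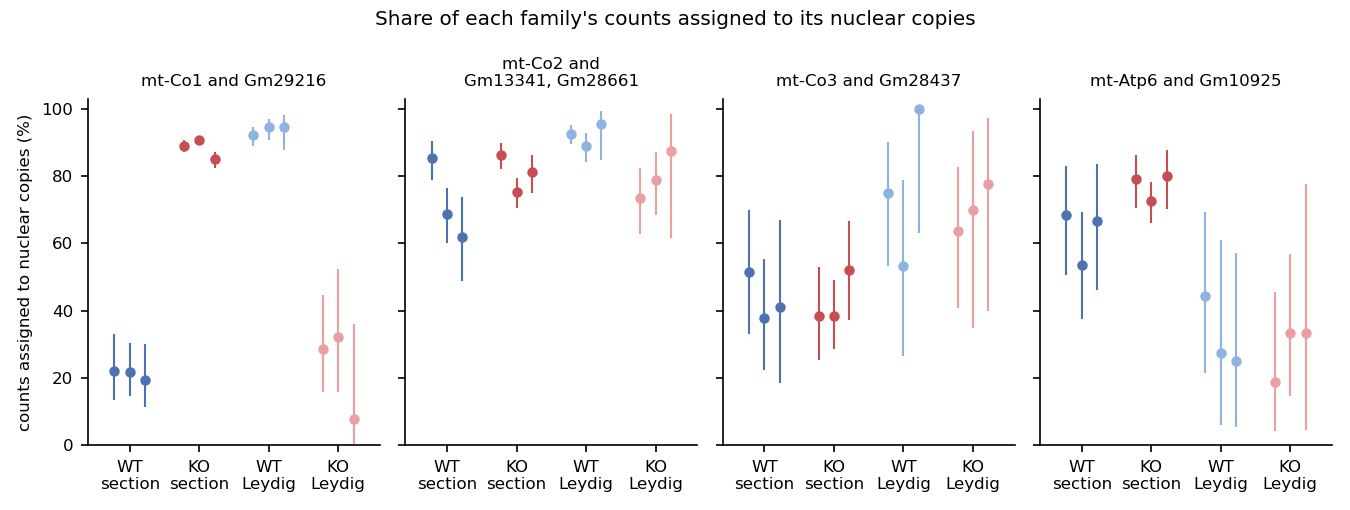
Percentage of each family's counts assigned to its nuclear copies in each library, with exact 95% binomial intervals that cover counting error only. The share for mt-Co1 is 85.0% or above in knockout sections and wild-type Leydig-targeted libraries and 32.1% or below in the other 6 libraries, while for mt-Co3 and mt-Atp6 the sections and the Leydig-targeted libraries are on different sides.

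Across the 9, CPM was higher in every knockout section than in every wild-type section for 8, all but mt-Co2, where the same held for 39.6% of all tested genes. In Leydig-targeted libraries Gm29216 and Gm13341 were lower in every knockout library, against 11.2% of tested genes, and the groups overlapped for the other 7. Leydig-targeted libraries of wild type were above every wild-type section for 8 of 9, all but mt-Co3, against 7.78% of tested genes. In knockouts Gm13341, Gm28437 and mt-Atp6 were above every section, against 8.34% of tested genes, and Gm29216 and Gm10925 were below every section, against 21.8%. These groups helped to choose the 9 genes, so nothing is read from the counts. CPM here is scaled by library totals alone. The fit also divides by factors of 0.567 to 0.772 in wild-type sections and 0.975 to 1.05 in knockout sections. In Leydig-targeted libraries the factors were 0.830, 1.01 and 2.28 in wild type, the last for replicate 3, and 1.09 to 1.39 in knockouts. Overlap was not compared on that scale. The median fitted log2 difference of the 9, knockout minus wild type, was 0.75 in sections and -0.81 in Leydig-targeted libraries.

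In sections, all 9 fitted differences, from 0.43 for mt-Co2 to 5.50 for Gm29216, kept their sign under every scaling tried. In Leydig-targeted libraries they ran from -5.44 to -0.07, and only that of mt-Co1 changed sign with scaling. For Leydig-targeted against entire section in knockouts, mt-Co1 at 0.34 and mt-Co3 at 0.16 became -0.02 and -0.16 when library sizes were recomputed after the filter.

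**Figure D3:**
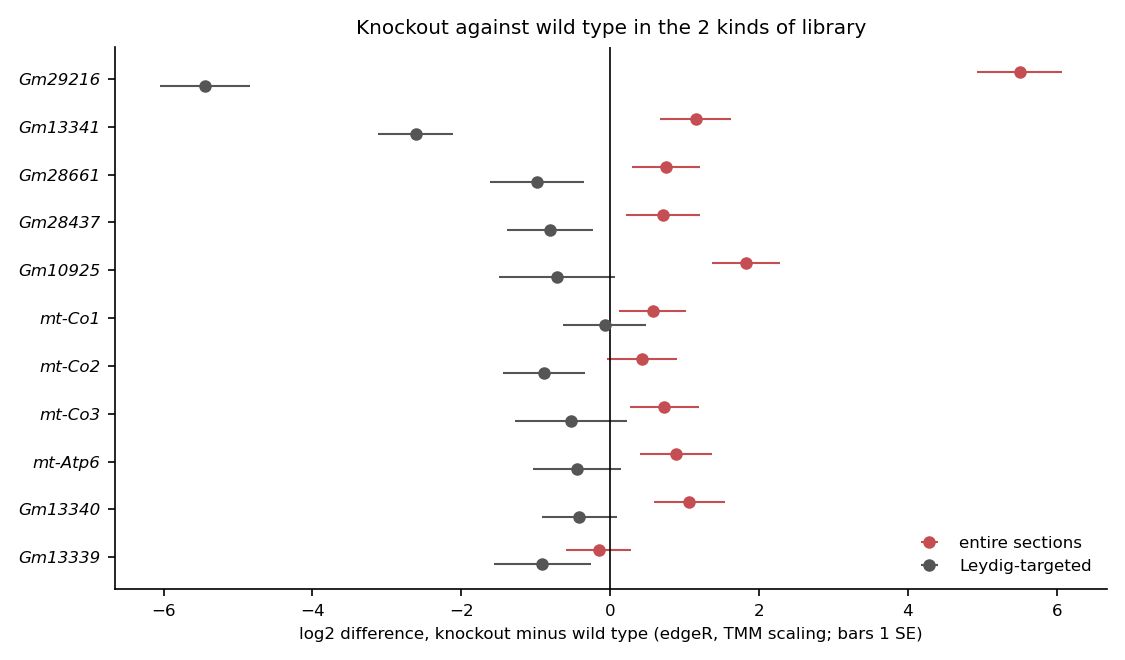
Fitted log2 differences, knockout minus wild type, with 1 SE, for the 9 genes and for 2 further copies on chromosome 2, by kind of library. Gm29216 is at 5.50 in sections and -5.44 in Leydig-targeted libraries, Gm13341 at 1.15 and -2.61, and the 4 mitochondrial genes are within 1 of 0 in both.

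A measure that compares the 9 with mitochondrial transcripts of the same library gave the same order for Gm29216. For every 100 counts of mt-Nd1, mt-Nd2, mt-Nd4, mt-Nd5, mt-Nd6 and mt-Cytb together, Gm29216 had 0.111 ± 0.0120 counts in wild-type sections, 6.43 ± 2.58 in knockout sections, 20.8 ± 2.67 in wild-type Leydig-targeted libraries and 0.773 ± 0.376 in knockout Leydig-targeted libraries (SD, n = 3 each). Gm13341 had 0.409 ± 0.261, 1.03 ± 0.269, 15.9 ± 6.36 and 4.81 ± 1.55 in the same order. On this scale mt-Co1 had 0.416 ± 0.0464, 0.805 ± 0.137 and 1.41 ± 0.513, and 2.24 to 4.17 in the last group, lowest in wild-type sections and highest in knockout Leydig-targeted libraries. The share of counts from all mitochondrially encoded genes was 3.06% to 6.10% in wild-type sections, 4.28% to 5.96% in knockout sections, 3.22% to 8.76% in wild-type and 2.08% to 2.82% in knockout Leydig-targeted libraries.

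The 4 mitochondrial genes were far below most others of the same chromosome. Per kilobase, the median level over the 12 libraries was 300 CPM for mt-Co1, 268 for mt-Co2, 248 for mt-Atp6 and 93.8 for mt-Co3. It was 9770 CPM per kilobase for mt-Nd4, 8354 for mt-Cytb, 7796 for mt-Nd6 and 5864 for mt-Nd1. Because reads come from 3′ ends, values per length compare genes only roughly. No strand setting was given in the sources used, and reads of mt-Nd6, the mRNA gene on the opposite strand, cannot be told apart from RNA antisense to it.

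The chromosome 1 block holds copies that reach to the last base, or to within 3 bases of it, of 6 mitochondrial genes, namely mt-Co1, mt-Co2, mt-Atp6, mt-Co3, mt-Nd3 and mt-Nd4l. Their median levels ran from 0 for mt-Nd4l to 300 CPM per kilobase for mt-Co1. The other 8 mRNA and rRNA genes in the table, whose 3′ ends lie outside that block, ran from 487 for mt-Nd5 to 9770 for mt-Nd4. Single libraries overlapped, with mt-Atp6 at up to 2222 and mt-Nd5 at down to 200 CPM per kilobase. Less similar copies on other chromosomes reach to within 1 base of the ends of mt-Nd2, mt-Nd6 and mt-Cytb, at 96.7%, 93.6% and 92.9% identity. mt-Nd4 is at the edge of the block, since Gm28439 carries its first 876 bases and none of its last 502. mt-Nd4l, which overlaps the start of mt-Nd4, had 2 counts in all 12 libraries, where mt-Nd4 had 45461. This is a description of 14 genes that share libraries and a chromosome.

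**Figure D4:**
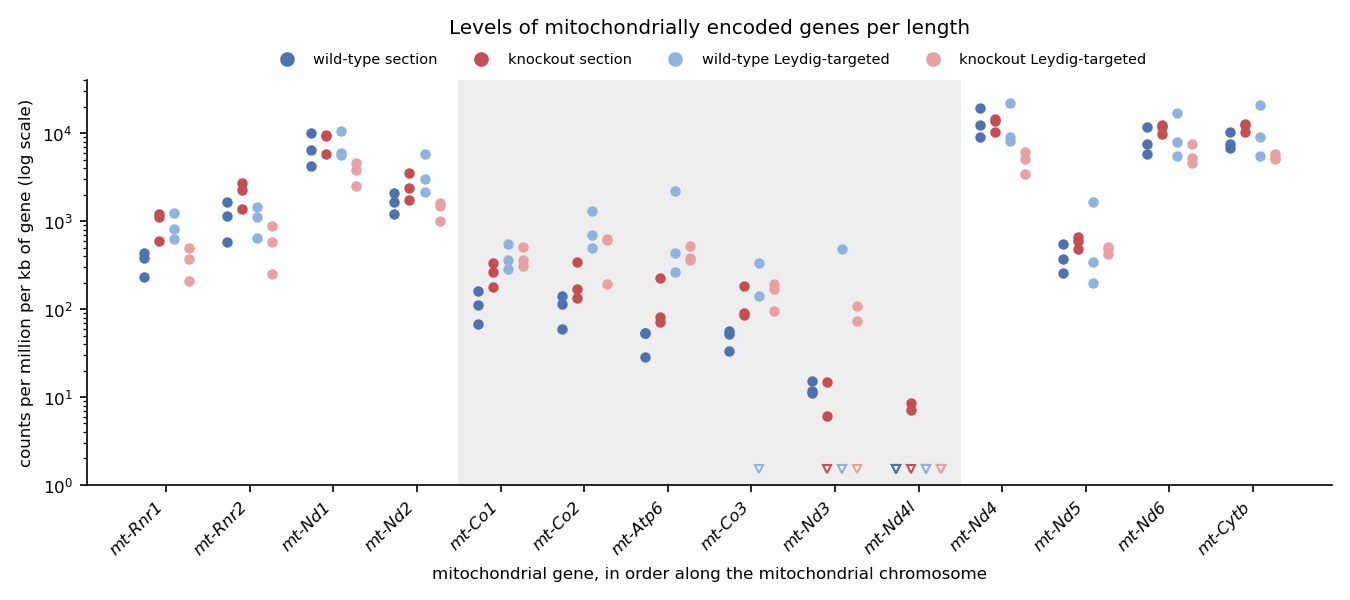
CPM per kilobase (log axis) of 14 mitochondrially encoded genes in chromosomal order, with 1 point per library coloured by group and open triangles for 0 counts. The shaded genes have their 3′ ends copied in the chromosome 1 block, and their medians are at or below 300, while those of the other genes are at 487 or above. Single libraries of shaded and other genes overlap.

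The other mitochondrially encoded genes were not chosen for their values and could be tested. Of 10 other mRNA and rRNA genes, 8 passed the expression filter. In sections none of the 8 was called between genotypes by edgeR's quasi-likelihood test with Benjamini-Hochberg adjustment, and 0 had an unadjusted p under 0.05. DESeq2 called 0 as well and had 2 under 0.05 unadjusted, and scaling by library totals alone called mt-Rnr1 and mt-Rnr2 higher in knockouts, as did library sizes recomputed after the filter for mt-Rnr1. In Leydig-targeted libraries mt-Nd4, a complex I subunit, fell by 1.16 ± 0.44 (SE) on the log2 scale in knockouts, with edgeR adjusted p = 0.0339. Scaled by library totals alone, its level was 11133, 12513 and 30267 CPM in wild type and 8452, 7080 and 4734 CPM in knockouts. The 7 others also had negative log2 differences, from -1.17 for mt-Nd2 to -0.006 ± 0.55 (SE) for mt-Nd5, beside a median of -0.28 over all tested genes. DESeq2 called 5 of the 8 lower, mt-Nd4, mt-Cytb, mt-Nd1, mt-Nd2 and mt-Rnr1, and 1105 of the 5182 tested genes. Scaling by library totals alone called 3 lower, mt-Cytb, mt-Nd4 and mt-Nd2, and 1034 of the 5182. Library sizes recomputed after the filter called 6 lower, all but mt-Nd5 and mt-Nd6, and 1326 of the 5182. The edgeR call of mt-Nd4 was lost with adjusted p = 0.795 without the expression filter, 0.461 without wild-type Leydig-targeted replicate 1 and 0.368 without replicate 2, and with 0.257, 0.127 and 0.195 without knockout replicates 1, 2 and 3.

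Against entire sections in knockouts, mt-Rnr2, the 16S rRNA gene, mt-Nd4 and mt-Cytb, of complex III, fell in Leydig-targeted libraries, with log2 differences of -2.02 ± 0.49, -1.60 ± 0.44 and -1.36 ± 0.45 (SE) and adjusted p = 0.00350, 0.0129 and 0.0452. DESeq2 called 6 of the 8 lower in this comparison, and 165 of the 5182 tested genes. Scaling by library totals alone called 3 lower, mt-Nd4, mt-Rnr2 and mt-Rnr1, and 176 of the 5182. Library sizes recomputed after the filter called 7 lower, all but mt-Nd5, and 482 of the 5182. The call of mt-Cytb was lost with the replicate block (adjusted p = 0.0616), with scaling by library totals alone (0.0893) and without the filter (0.0925). It was also lost without knockout section replicate 3 (0.112), wild-type Leydig-targeted replicates 1 (0.0738) or 2 (0.0783) and knockout Leydig-targeted replicates 1 (0.151) or 2 (0.0940). The call of mt-Nd4 was lost without the filter (0.0523), knockout section replicate 3 (0.0565) and knockout Leydig-targeted replicates 1 (0.0786) or 2 (0.0588). In wild type 0 of the 8 was called between Leydig-targeted and entire-section libraries, with 1 at an unadjusted p under 0.05 and 0 called by DESeq2, while scaling by library totals alone called mt-Rnr1 higher. For the interaction 0 was called, with 2 at an unadjusted p under 0.05 and 0 called by DESeq2, and mt-Rnr1 was called lower with scaling by library totals alone and with library sizes recomputed after the filter.

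A search of annotated transcripts found 15 nuclear gene models with at least 90% identity to a mitochondrial transcript over at least 200 bases, 14 of them in the count table. Of the 9 copies beside the 5 already described, Gm13339 of mt-Nd2 had 649 counts over the 12 libraries, Gm13340 of mt-Co1 609, Gm28438 of mt-Nd3 57, Gm28439 of mt-Nd4 54 and Gm11407 of mt-Nd5 15. The first 2 passed the expression filter.

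Gm13340 covers all 1545 bases of mt-Co1 with 37 mismatches, and it lies next to Gm13341. It had 48, 40 and 23 counts in wild-type sections, 92, 143 and 79 in knockout sections, 47, 30 and 9 in wild-type Leydig-targeted libraries and 57, 35 and 6 in knockout Leydig-targeted libraries. In sections it rose in knockouts by 1.07 ± 0.47 (SE) on the log2 scale, with edgeR adjusted p = 0.0408, which became 0.0724 with the replicate block. In wild type it was 2.92 ± 0.52 (SE) higher on the log2 scale in Leydig-targeted libraries than in sections, with adjusted p = 4.85e-06. In knockouts the same difference was 1.45 ± 0.48 (SE), with adjusted p = 0.0502. There DESeq2 (0.000644), scaling by library totals alone (0.00358), the fit of the compared groups only (0.00115), copies summed with their gene (0.0499) and the fit without wild-type section replicate 2 (0.0398) called it. Between genotypes in Leydig-targeted libraries its log2 difference was -0.41 ± 0.51 (SE), with adjusted p = 0.583, and the interaction did not pass (adjusted p = 0.415). Gm13339 did not pass in these comparisons, with adjusted p from 0.305 to 0.971. Gm28439 had 5, 4 and 2 counts in wild-type sections, 8, 15 and 13 in knockout sections, 3, 2 and 2 in wild-type and 0, 0 and 0 in knockout Leydig-targeted libraries, too few to test.

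With Gm13340 counted among the copies of mt-Co1, the share assigned to copies was 44.0% ± 7.22 in wild-type sections, 89.1% ± 2.58 in knockout sections, 94.4% ± 1.26 in wild-type Leydig-targeted libraries and 58.8% ± 19.0 in knockout Leydig-targeted libraries (SD, n = 3 each). The order of the groups was unchanged.

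The 3 tested genes outside the 9 whose log2 CPM followed Gm29216 most closely over the 12 libraries were B3gnt3, a glycosyltransferase, Klf3, a Krüppel-like transcription factor, and Rad1, of a DNA damage checkpoint clamp, with Pearson r of 0.85, 0.82 and 0.78. B3gnt3 had 2, 3 and 1 counts in wild-type sections, 19, 19 and 24 in knockout sections, 15, 7 and 4 in wild-type and 1, 6 and 0 in knockout Leydig-targeted libraries. Among the 9, Gm10925 had r = 0.73 and Gm13341 r = 0.70 with Gm29216, while mt-Co1 had r = 0.39. For mt-Co1 the closest were Gm9703, Klf15 and the nuclear RNA Malat1, with r of 0.86, 0.78 and 0.78. The libraries of a group share a barcoded set and a genotype, and depth differed between regions, so these are descriptions of likeness.

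Nuclear genes for the same complexes did not share the pattern of Gm29216. Of 13 tested nuclear subunits of complex IV, 5 rose and 4 fell in knockout sections, and 1 rose and 3 fell in knockout Leydig-targeted libraries, with median log2 differences of -0.30 and -0.18 beside -0.35 and -0.28 over all tested genes. Since 61.6% and 28.5% of all tested genes were called in these comparisons, the counts are near the background. With scaling by library totals alone these medians were 0.28 and 0.01. Cox6b2 and Cox8c, the testis forms of 2 subunits, fell in sections, with log2 differences of -6.30 ± 0.59 and -6.56 ± 0.64 (SE) and adjusted p = 8.27e-25 and 5.47e-23. Cox6b1, the widely expressed form, rose by 1.82 ± 0.46 and Ndufa4 by 1.74 ± 0.45, with adjusted p = 2.29e-04 and 3.02e-04. In Leydig-targeted libraries Cox6b2 had 33, 26 and 1 counts in wild type and 0 in all knockouts (adjusted p = 3.62e-08). Cox8c had counts of 33, 11 and 0 in wild-type libraries against 1, 0 and 0 in knockout libraries (adjusted p = 4.88e-06). Cox7b rose there by 2.34 ± 0.74, with adjusted p = 0.00958, which became 0.129 without wild-type Leydig-targeted replicate 3, 0.0716 without wild-type section replicate 3 and 0.0554 without knockout Leydig-targeted replicate 2.

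Of 17 tested nuclear subunits and regulators of ATP synthase, 2 rose in knockout sections, or 10 with scaling by library totals alone. In knockout Leydig-targeted libraries 3 rose. Of all 5182 tested genes, 1170 were called higher in knockout sections, or 1861 with that scaling, and 391 in knockout Leydig-targeted libraries. In either direction 61.6% and 28.5% were called. The median log2 differences of the 17 were 0.33 and 0.68, beside -0.35 and -0.28 over all tested genes. The median in sections was 0.97 with scaling by library totals alone, and that in Leydig-targeted libraries was 0.23 with library sizes recomputed after the filter. Atp5d of the catalytic head rose in sections by 2.39 ± 0.47 (adjusted p = 1.68e-06), and Atp5g3, a membrane ring subunit, rose by 1.71 ± 0.47 in sections and 1.92 ± 0.59 in Leydig-targeted libraries (adjusted p = 6.41e-04 and 0.00741). Atp5l rose by 2.72 ± 0.90 in Leydig-targeted libraries (adjusted p = 0.0134). Without wild-type Leydig-targeted replicate 3 the adjusted p in Leydig-targeted libraries was 0.155 for Atp5g3 and 0.0527 for Atp5l, without wild-type section replicate 3 it was 0.0676 and 0.0862, and without knockout Leydig-targeted replicate 2 it was 0.127 and 0.0780. Without wild-type Leydig-targeted replicate 1 it was 0.135 for Atp5l. Atp5o, the third, had a log2 difference of 2.23 ± 0.82 (SE, edgeR adjusted p = 0.0278). Its call was lost with library sizes recomputed after the filter (0.0969) and when any library but knockout section replicate 3, wild-type Leydig-targeted replicate 2 or knockout Leydig-targeted replicate 1 was left out, with adjusted p from 0.0561 to 0.217.

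Genes that copy, transcribe or process mitochondrial nucleic acids were mostly below the expression filter, with 4 of 23 tested. In knockout sections Hsd17b10, a dehydrogenase that is also part of the mitochondrial RNase P, rose by 2.28 ± 0.47 on the log2 scale (adjusted p = 5.47e-06). Polg, the mitochondrial DNA polymerase, fell from 194 ± 63.8 to 70.5 ± 9.85 CPM and Tfam, which packages mitochondrial DNA, from 75.8 ± 30.4 to 40.1 ± 8.98 CPM (SD, n = 3 each), with edgeR adjusted p = 2.26e-05 and 0.00289, and that of Tfam became 0.0738 with scaling by library totals alone, 0.0572 without the filter and 0.0867 without knockout Leydig-targeted replicate 3. In Leydig-targeted libraries 0 of the 4 was called, 0 had an unadjusted p under 0.05 and DESeq2 called 0. Cycs, the somatic cytochrome c that passes electrons to complex IV, rose by 1.79 ± 0.51 in knockout sections (adjusted p = 0.00102) and was not called in Leydig-targeted libraries, and Cyct, its testis form, did not pass the filter.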

How the data were processed

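Per the submitters' processing notes, the authors used UMI-tools, Trim Galore, HISAT2 and featureCounts with the GRCm38 genome, and no versions are given. The deposited values are raw whole-number counts per gene, with 1 column per library. For strand and for reads with several matches, the settings were not given in the sources used. No label ties libraries to animals, and p-values therefore describe spread among libraries, which may be technical.

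Counts were tested with edgeR 4.0.16 (robust quasi-likelihood test, TMM scaling, R 4.3.3), fitted to the 4 groups of 12 libraries together. Genes passing the package's expression filter (minimum count 10, here about 66.1 CPM in at least 3 libraries) were tested, 5182 in all, with Benjamini-Hochberg adjustment over all of them and a threshold of 0.05. All 9 described genes passed. On simulated counts with the section design, 87.9% of planted 8-fold changes were recovered, with 4460 genes tested. With the Leydig-targeted design 59.1% were recovered, with 4463 tested. Planted genes that failed the filter count as missed. The simulation gave every gene the same spread beyond counting error and equal means where no change was planted, unlike these data. Of 4-fold changes 82.1% were recovered with the section design and 17.9% with the Leydig-targeted design, and of 2-fold changes 19.4% and 0%. Smaller changes are thus often missed, 2-fold ones in both designs.

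The 9 genes and all lists were chosen with earlier results of these data known. Named genes are the 9, the other mitochondrial mRNA and rRNA genes, the 5 other copies with the most counts, the 3 genes most correlated with Gm29216 and with mt-Co1, and up to 2 called genes per list, comparison and direction. Copies were found with blastn (BLAST 2.17.0) among GENCODE M21 transcripts, against mitochondrial transcripts instead of the mitochondrial chromosome, which was not used here. Substitutions come from pairwise alignment. Shares have exact Clopper-Pearson 95% intervals and 0 counts a floor of 3 counts, both for counting error only. Alternatives were DESeq2 1.42.0, other scalings, no filter, a replicate block, fits of the compared groups only, copies summed with their gene, and each library left out. Same-numbered section libraries of the genotypes deviated together (correlations 0.243, 0.132 and 0.194 across genes) and Leydig-targeted ones did not (-0.00357, 0.00818 and -0.00629). The numbers may thus pair sections only. The main fit used no pairing, and the replicate block entered the number for all 12 libraries, Leydig-targeted ones included.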

Additional observations from a re-analysis of the deposited data

Results flagged for a closer look

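Gm29216, the partial nuclear copy of mt-Co1, was higher in every knockout library than in every wild-type library of entire sections and lower in every knockout library of Leydig-targeted areas. The fitted interaction, the log2 difference in Leydig-targeted libraries minus that in sections, was -10.94. Gm13341, the diverged copy of mt-Co2 on chromosome 2, had the same opposite orders, with an interaction of -3.76. Because both genes were chosen for these counts, neither difference was tested here. The spermatocyte and spermatid marker share, 2.03% to 3.35% in wild-type Leydig-targeted libraries against at most 0.0113% in knockout ones, moved with the genotype in both kinds of library, and its part was not tested.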

How the results depend on the processing

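The number of genes called depended on the settings. Without the expression filter it was 7055 for genotype in sections, 825 for genotype in Leydig-targeted libraries, 1602 for region in wild type and 7 for the interaction. Fits of the compared groups only called 5238, 173, 346 and 468 of 7907, 418, 3330 and 3894 tested genes for the 4 group comparisons in the order given in the report. Scaling by library totals alone called 61 genes for the interaction, DESeq2 72 and the replicate block 9. Library sizes recomputed after the filter, an alternative chosen after seeing the data, called 509 for region in wild type, 550 in knockouts and 54 for the interaction. With each library left out in turn, counts ran from 1384 to 5180 and from 588 to 1949 for genotype in sections and in Leydig-targeted libraries, from 267 to 1419 and from 85 to 949 for region in wild type and in knockouts, and from 6 to 116 for the interaction. The filter tested other numbers of genes in those fits, 2285 without wild-type section replicate 1 and 5182 in the main one.

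The share of higher genes among those called in sections was 36.6%, or 52.2% with scaling by library totals alone, in Leydig-targeted libraries 26.5% or 35.1%, for region in wild type 20.6% or 57.0%, in knockouts 35.1% or 52.6%, and for the interaction 58.8% or 23.0%. Adding Gm13340 to the copies of mt-Co1 moved the copy share to 44.0% in wild-type sections and 58.8% in knockout Leydig-targeted libraries. No other copy share moved by more than its SD, and without 1 library each the mt-Co1 share ran from 20.6% to 21.9%, 87.0% to 89.9%, 93.3% to 94.6% and 18.1% to 30.4% in the 4 groups. The log2 differences of Gm29216 lay between 5.45 and 6.14 in sections and between -6.11 and -4.80 where Leydig cells were targeted, over 18 alternatives each, and those of Gm13341 from 1.07 to 1.76 and from -3.37 to -1.99. Over the alternatives the Leydig-targeted genotype differences took both signs for mt-Co1 (-3.57, with its copy added, to 0.71), mt-Co3 (-1.29 to 0.49), mt-Atp6 (-1.14 to 0.16) and Gm10925 (-1.57 to 0.08). The cause of these movements was not tested. Depth limits the Leydig-targeted values, where mt-Co3, mt-Atp6, Gm10925 and Gm28661 had 14 or fewer counts in each library. The replicate block ended the calls of Gm13340 in sections and mt-Cytb between regions in knockouts and no other call named here.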

Other observations

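The sum of a mitochondrial gene and the copies added to it does not depend on how counts were split among these. It holds no read that was left uncounted, and how reads with several matches were treated was not given. mt-Co1 and Gm29216 together had 222 ± 87.6 CPM in wild-type sections, 3574 ± 1658 in knockout sections, 10318 ± 4634 in wild-type and 784 ± 75.0 in knockout Leydig-targeted libraries (SD, n = 3 each). Gm13340, also a copy of mt-Co1, was left out of this sum. It had 84.7 ± 8.19, 268 ± 87.8, 1162 ± 331 and 784 ± 351 CPM in the same order (SD, n = 3 each), so the split of reads with it still matters. The log2 difference, knockout minus wild type, of mt-Co1 with Gm29216 was 3.39 in sections and -3.57 in Leydig-targeted libraries. Gm29216 held 89.0% and 93.2% of the summed counts in knockout sections and wild-type Leydig-targeted libraries, so this sum mostly restates Gm29216, where mt-Co1 alone had 0.57 and -0.07. For mt-Co2 with both copies it was 0.92 and -2.24.

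B3gnt3, a glycosyltransferase gene on none of the lists, was chosen because its levels were the most like those of Gm29216, so its values are a description with no test. Its log2 difference, knockout minus wild type, was 2.87 ± 0.67 (SE) in sections and -2.38 ± 0.75 (SE) in Leydig-targeted libraries, and it had 24 or fewer counts in each library.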
